A study of Homo sapiens with 36 samples.

Results

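The comparison of TRAP-1-NegB with DMSO at 4 h set 3 RNA libraries of BxPC-3 cells given 3 µM TRAP-1-NegB for 4 h against 3 libraries of the same cells given DMSO, the solvent control, for 4 h. The 6 libraries, of 36 in the series, were chosen by compound and time alone, with no measured value. All 14988 genes of 29744 in the table that passed a filter on low counts were tested. BxPC-3 is an established human pancreatic adenocarcinoma cell line, labelled as wild type, and all groups share it and a medium with serum. The series title calls TRAP-1-NegB a control compound of TRAP1, and the labels do not say what the suffix stands for. Further groups of 3 libraries are used below: DMSO and TRAP-1-NegB at 2 h, and MS78, TRAP1, TRAP-1-NegP and JQ1 at 4 h, each compound at 3 µM. JQ1 inhibits the BET bromodomain proteins, and TRAP1, written TRAP-1 in the protocol, names a compound here and not the gene of that symbol. The labels number the replicates without saying whether they were separate cultures, so p-values measure only the spread between these libraries, which may be technical.

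The results below turn mainly on a pair of well-described systems. The aryl hydrocarbon receptor (AhR) is a ligand-activated transcription factor that waits in the cytosol with HSP90, enters the nucleus when bound, pairs with ARNT and binds DNA at a short core motif. Its classical targets are the cytochrome P450 genes of the CYP1 family, which oxidise polycyclic compounds, and its own feedback inhibitors AHRR and TIPARP. Cholesterol synthesis and uptake genes are driven by the SREBP transcription factors, which are held in the endoplasmic reticulum by INSIG proteins and released when membrane sterol is low.

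TRAP-1-NegB raised 124 genes and lowered 30 at 4 h, which is 0.827% and 0.200% of the genes tested (adjusted p under 0.05, edgeR). Only 15 of the 154 changed by at least 2-fold, 13 up and 2 down, and the median change over all genes was −0.0033 on the log2 scale. In all 154 called genes, and in 16.6% of all tested genes, the 3 libraries of each group lay wholly apart. Every level below is in CPM, estimated counts scaled to a common library size, every change is a log2 fold change unless called a fold, and the error after ± is the SD over 3 libraries for a level and the SE for a change. The 6 libraries held 18063430 to 24625710 estimated counts, and replicates of a group differed by more than counting noise (chi-square per degree of freedom 5.38 to 11.4). The ductal keratin gene KRT19 stood between 3465 and 3797 TPM, and the leukocyte gene PTPRC and the islet gene INS were at 0 in all 6. Other members of the haematopoietic and endothelial list were present. That list summed to 28.3 to 30.7 TPM with DMSO and 23.7 to 32.5 TPM with TRAP-1-NegB. The 154 calls fell to 92 without DMSO replicate 2 or 3 and to 93 without TRAP-1-NegB replicate 3. They rose to 378, with all 154 among them, when TRAP1 replicate 1 at 4 h and MS78 replicate 1 at 2 h were left out of the shared fit. This pair is called the libraries that stand apart. TRAP1 replicate 1 stood at −60.7 on principal component 2 of the libraries, against −16.1 and −0.28 in its group. MS78 replicate 1 lay with its group on components 1 and 2. Its total was 26608325 estimated counts, against 16419842 and 18206377 in its group. Median GC content was 46.3% in the raised genes, 56.2% in the lowered and 48.6% in all tested genes with a value. With counts corrected for GC, 310 genes were called, 148 of the 154 among them.

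CYP1A1, which encodes the P450 enzyme most often used as a readout of AhR activity, showed the largest rise. It stood at 0.691, 0.765 and 1.42 CPM in the DMSO libraries and at 32.0, 31.2 and 32.7 CPM with TRAP-1-NegB. The groups lay far apart, and the fitted rise was 33.0-fold (5.04 ± 0.29, adjusted p = 7.8e-20). CYP1B1, the family member that is prominent outside the liver, went from 9.67, 8.85 and 12.7 CPM to 149, 142 and 146 CPM, a rise of 3.80 ± 0.16 (adjusted p = 5.5e-20). Per transcript length, CYP1B1 was the more abundant of the pair, at a mean of 39.1 TPM against 17.8 TPM with TRAP-1-NegB. CYP1A2, the liver isoform, did not pass the count filter.

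The feedback arm of the receptor rose too. AHRR, a repressor that competes with AhR for ARNT, stood at 9.08, 9.02 and 9.18 CPM with DMSO and at 25.6, 20.3 and 16.1 CPM with TRAP-1-NegB. Its treated libraries were spread more widely than its controls but did not overlap them (1.19 ± 0.18, adjusted p = 9.9e-06). TIPARP, an ADP-ribosyltransferase that marks AhR for degradation, rose from 37.4, 42.3 and 38.0 CPM to 89.6, 86.7 and 89.6 CPM (1.18 ± 0.086, adjusted p = 1e-15). The transcript of the receptor itself did not pass: AHR stood at 93.9, 80.8 and 85.3 CPM with DMSO and 78.0, 76.8 and 87.7 CPM with TRAP-1-NegB, with overlapping groups (−0.10 ± 0.14, adjusted p = 0.89, 95% interval −0.38 to 0.18). Of 15 genes of the receptor machinery 3 rose and 0 fell, beside 0.827% and 0.200% over all tested genes. AHRR and TIPARP among them are also counted as AhR targets. The other riser was HSP90AA1, which encodes a chaperone of AhR among many other proteins, at 0.19 ± 0.047, a call that was lost without each library in turn except DMSO replicate 1 (0.16 to 0.20 in those fits).

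Promoters of AhR targets show where the receptor's core motif lies in the genes that rose. The RefSeq windows of build GRCh38.p14, from 250 bases before to 50 after the start, are printed for 4 of them 5′ to 3′ on the gene's strand. Capitals mark GCGTG, the core of the dioxin response element, or CACGC, the same core on the other strand. CYP1A1 is at chr15:74725479-74725778 (minus strand), TIPARP at chr3:156674340-156674639 (plus), AHRR at chr5:321464-321763 (plus) and SLC7A5 at chr16:87869458-87869757 (minus).
CYP1A1: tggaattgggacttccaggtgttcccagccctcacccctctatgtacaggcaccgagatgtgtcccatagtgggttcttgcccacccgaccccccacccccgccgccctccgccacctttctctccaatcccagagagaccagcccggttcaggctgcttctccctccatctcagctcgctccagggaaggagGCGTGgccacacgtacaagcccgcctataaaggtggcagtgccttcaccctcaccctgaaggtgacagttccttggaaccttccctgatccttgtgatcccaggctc
TIPARP: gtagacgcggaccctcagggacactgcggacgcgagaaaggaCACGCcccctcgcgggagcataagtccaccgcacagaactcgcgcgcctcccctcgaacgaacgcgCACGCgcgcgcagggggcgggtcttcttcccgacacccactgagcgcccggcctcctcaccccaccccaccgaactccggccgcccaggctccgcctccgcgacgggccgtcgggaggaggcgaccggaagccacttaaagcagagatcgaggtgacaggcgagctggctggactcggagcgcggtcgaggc
AHRR: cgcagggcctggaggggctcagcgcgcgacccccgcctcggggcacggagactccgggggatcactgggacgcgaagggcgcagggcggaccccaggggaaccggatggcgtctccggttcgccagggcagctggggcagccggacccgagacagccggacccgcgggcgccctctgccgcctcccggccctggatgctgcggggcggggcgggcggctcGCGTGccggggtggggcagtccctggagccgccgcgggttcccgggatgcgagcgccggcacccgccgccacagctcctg
SLC7A5: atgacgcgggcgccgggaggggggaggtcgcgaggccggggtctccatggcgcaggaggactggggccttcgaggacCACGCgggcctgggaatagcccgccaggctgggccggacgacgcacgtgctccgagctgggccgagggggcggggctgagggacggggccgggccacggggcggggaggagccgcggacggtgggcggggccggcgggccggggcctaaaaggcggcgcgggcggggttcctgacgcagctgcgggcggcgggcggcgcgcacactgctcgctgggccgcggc
TIPARP held 2 matches in this window and the other genes 1 each. Of the 12 list members that rose, 10 had windows in the table, and 7 of those 10 held the core. Counted over windows it was 9 of 16, or 56.2%, against 36.5% of all 35116 windows. Over all tested members in the table, risen or not, 15 of 31 windows held it, or 48.4%. A match describes letters only and not binding.

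Over the fixed list of AhR targets, 26 of 32 genes were tested, and 12 rose and 0 fell, with a list median of 0.61. The list holds genes chosen with earlier results of these data known, so the count is a description. SERPINB2, a serine protease inhibitor induced by dioxins in many cell types, rose from 167, 169 and 155 CPM to 384, 406 and 382 CPM (1.25 ± 0.064, adjusted p = 6.5e-22). SLC7A5, the large neutral amino acid transporter that also carries kynurenine and other AhR ligands, was among the most abundant risers. It went from 477, 489 and 504 CPM to 925, 891 and 902 CPM (0.89 ± 0.054, adjusted p = 6.6e-19). Both aldehyde dehydrogenases of the list rose. ALDH1A3, which makes retinoic acid, was at 618, 562 and 565 CPM with DMSO and at 953, 944 and 933 CPM with TRAP-1-NegB (0.70 ± 0.043, adjusted p = 1.1e-18), and ALDH3A1 rose by 0.87 ± 0.070. IL1B, the gene of the cytokine interleukin-1 beta, rose from 39.1, 38.0 and 38.9 CPM to 70.7, 70.2 and 79.4 CPM (0.93 ± 0.099, adjusted p = 1e-09).

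The remaining members changed less or did not pass. EREG, an EGF receptor ligand, rose by 0.77 ± 0.16, NEDD9, a focal adhesion scaffold, by 0.39 ± 0.089, and NFE2L2, which encodes NRF2, by 0.33 ± 0.083. Each of these 3 calls was lost in 4 of the 6 fits without a library: EREG without DMSO replicate 1 or 3 or TRAP-1-NegB replicate 2 or 3 (0.72 to 0.76), NEDD9 without DMSO replicate 2 or 3 or TRAP-1-NegB replicate 1 or 3 (0.32 to 0.38), and NFE2L2 without DMSO replicate 2 or 3 or TRAP-1-NegB replicate 1 or 2 (0.27 to 0.31). NQO1, a quinone reductase induced through both AhR and NRF2, did not pass, at 319, 343 and 314 CPM against 314, 350 and 338 CPM (0.04 ± 0.050, adjusted p = 0.87, 95% interval −0.06 to 0.14). CYP2S1 stood at −0.06 ± 0.073 (adjusted p = 0.87). Of 27 genes of xenobiotic metabolism and transport, a list that also holds CYP2S1 and ABCG2, 0 rose and 0 fell, near the 0.827% and 0.200% over all tested genes. The 12 AhR calls were 9 to 11 with a library left out.

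**Figure D1:**
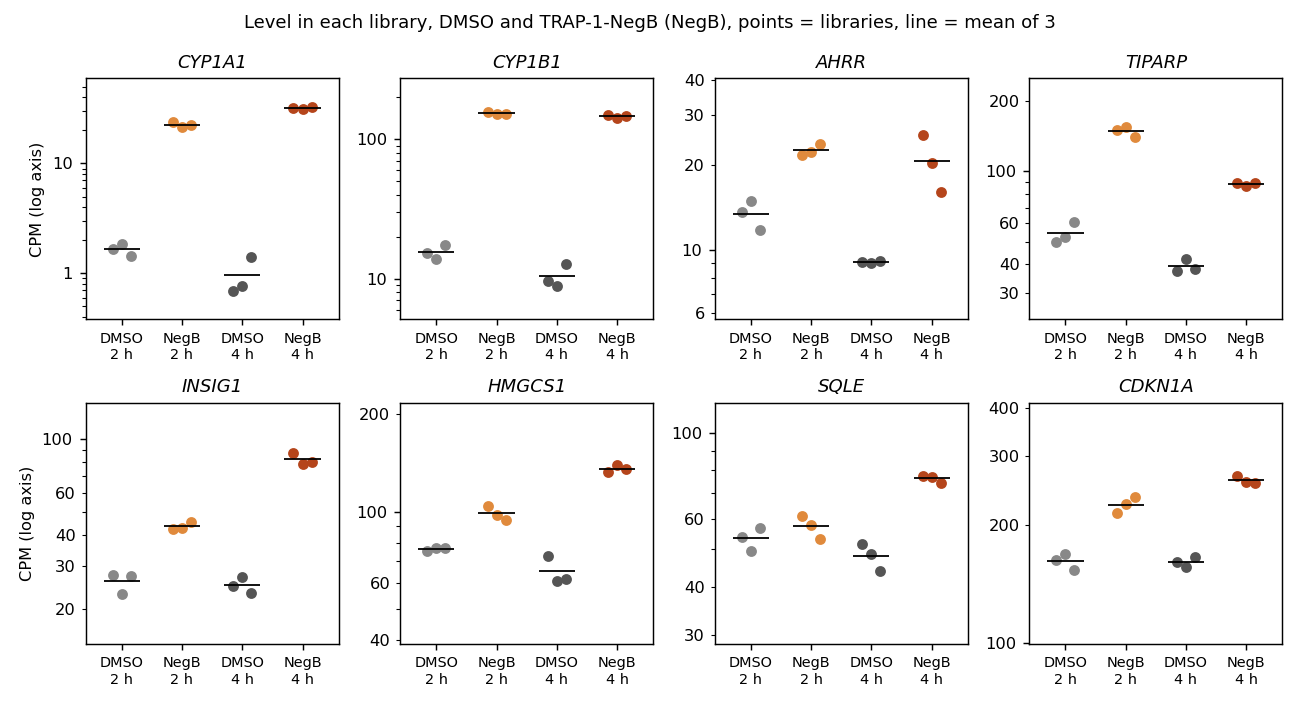
Levels of 8 genes in each library (CPM, log axis) for DMSO and TRAP-1-NegB at 2 and 4 h, with 3 points per group and a line at their mean. CYP1A1 rises from a mean of 0.957 to 32.0 CPM at 4 h, and SQLE is at a mean of 57.4 CPM with TRAP-1-NegB at 2 h and 76.3 CPM at 4 h.

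Genes of cholesterol and fatty acid synthesis formed the second group of rises, with 13 up and 0 down of 29, all 29 listed genes being tested, and a median of 0.33. INSIG1, the sterol sensor that retains SREBP in the endoplasmic reticulum and is itself an SREBP target, stood at 24.7, 26.9 and 23.3 CPM with DMSO. With TRAP-1-NegB it stood at 87.6, 78.7 and 80.2 CPM, a rise of 1.72 ± 0.077 (adjusted p = 2.9e-24). HMGCS1, an early enzyme of the mevalonate pathway, rose from 72.9, 60.8 and 61.9 CPM to 133, 139 and 136 CPM (1.06 ± 0.080, adjusted p = 4.2e-15). SQLE, the squalene oxidising enzyme of the sterol branch, rose from 51.8, 48.6 and 44.0 CPM to 77.6, 77.1 and 74.1 CPM (0.66 ± 0.11, adjusted p = 4.8e-05).

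Not every later step was raised. IDI1, the isomerase of the isoprenoid branch point, rose by 0.80 ± 0.079 (adjusted p = 8e-11), from 37.7, 35.1 and 32.0 CPM to 57.4, 62.0 and 63.2 CPM. FDFT1, which makes squalene, rose (0.33), as did the later sterol enzymes CYP51A1 (0.56), MSMO1 (0.75) and DHCR7 (0.41). Among the same steps FDPS stood at −0.02 ± 0.069 (adjusted p = 0.96) and LSS at 0.00 ± 0.15 (adjusted p = 1). Of the fatty acid genes, the desaturase gene SCD rose by 0.41 ± 0.051, while FASN stood at 0.19 ± 0.086 (adjusted p = 0.44) with overlapping groups. The transcripts of the regulators SREBF1 (0.06 ± 0.094, adjusted p = 0.91) and SREBF2 (0.06 ± 0.082, adjusted p = 0.89) did not pass. The 13 calls stayed at 13 with each library left out in turn.

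The promoter windows of INSIG1 (chr7:155297628-155297927, plus strand) and HMGCS1 (chr5:43313363-43313662, minus strand) are printed because SREBP acts at such promoters together with NF-Y, a factor that binds CCAAT boxes. Capitals mark ATTGG or CCAAT, its core on either strand, in GRCh38.p14 windows from RefSeq.
INSIG1: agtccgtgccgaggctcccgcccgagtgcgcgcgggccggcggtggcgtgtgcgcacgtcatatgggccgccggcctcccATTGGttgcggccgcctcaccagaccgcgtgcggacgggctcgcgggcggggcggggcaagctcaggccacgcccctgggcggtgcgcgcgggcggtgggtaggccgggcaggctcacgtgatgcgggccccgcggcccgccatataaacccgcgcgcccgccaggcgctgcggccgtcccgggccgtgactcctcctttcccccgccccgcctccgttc
HMGCS1: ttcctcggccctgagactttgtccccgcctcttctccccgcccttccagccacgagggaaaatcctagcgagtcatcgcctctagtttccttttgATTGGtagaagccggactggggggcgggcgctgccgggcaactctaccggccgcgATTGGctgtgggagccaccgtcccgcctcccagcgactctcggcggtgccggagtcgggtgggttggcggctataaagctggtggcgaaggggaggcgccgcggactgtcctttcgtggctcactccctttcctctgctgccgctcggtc
INSIG1 held 1 match and HMGCS1 held 2. Of the 13 risen members 7 had windows in the table and 6 of these held the core, in 7 of 11 windows or 63.6%, against 34.6% of all windows. Over all tested members in the table, 21 of 31 windows held it, or 67.7%.

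**Figure D2:**
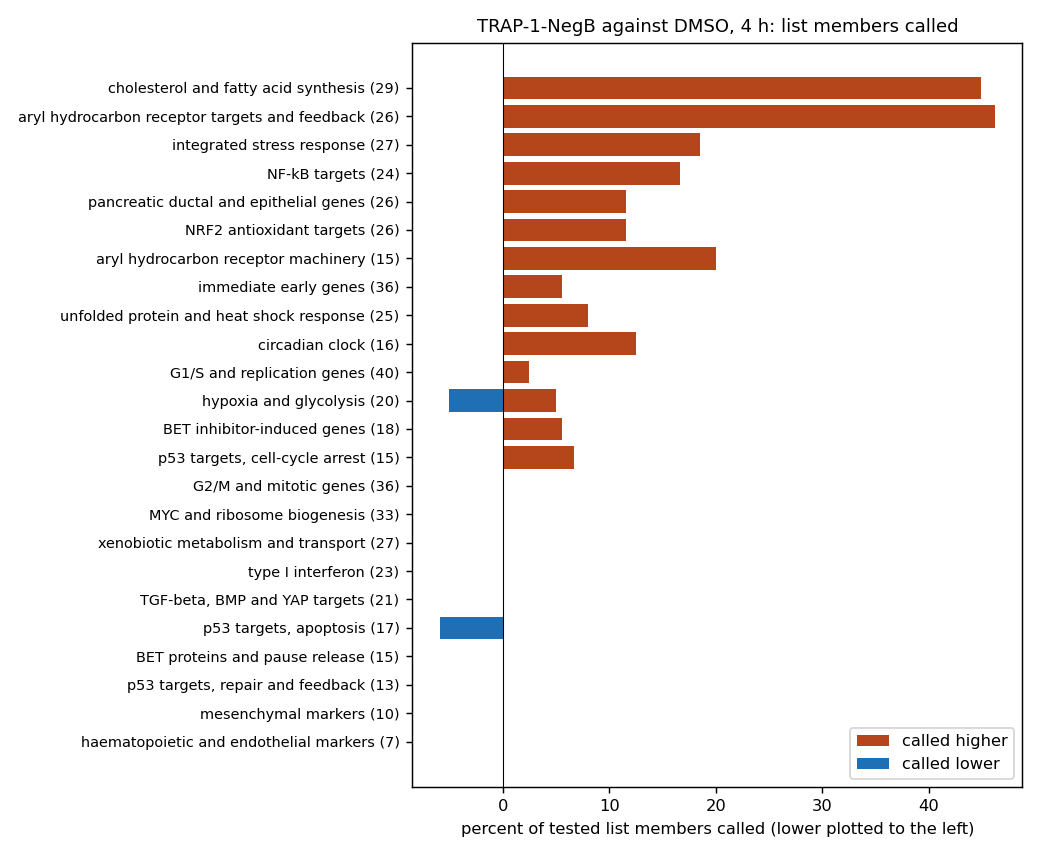
Percent of the tested members of 24 gene lists called higher (right) or lower (left) with TRAP-1-NegB at 4 h, with the number tested in brackets. The AhR target and the cholesterol and fatty acid lists hold 12 of 26 and 13 of 29 called higher, and 9 lists hold no called gene. Over all tested genes 0.827% were called higher and 0.200% lower.

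Inflammatory and growth factor genes made up part of the other rises. PTGS2, the inducible cyclooxygenase, went from 17.2, 13.0 and 14.3 CPM to 37.4, 32.8 and 34.2 CPM (1.23 ± 0.16, adjusted p = 3.5e-06). Of 24 NF-kB targets 4 rose and 0 fell, namely PTGS2, IL1B, IL1A (0.41) and LIF (0.80), while the list median was −0.03 and the inhibitor gene NFKBIA stood at −0.21 (adjusted p = 0.4). The calls of IL1A and LIF were lost in 5 and 6 of the 6 fits without a library, IL1A passing only without DMSO replicate 2. Among 36 immediate early genes 2 rose, FOSL1 (0.33 ± 0.062) and IER3 (0.48 ± 0.062), and 0 fell. Among 26 epithelial genes 3 rose: AREG (0.50 ± 0.076) and EREG, both EGF receptor ligands, and KLF5 (0.28 ± 0.071), whose call was lost without each library in turn. Over all tested genes 0.827% rose and 0.200% fell. IL1B and EREG are also counted among the AhR targets, so these lists are not independent.

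Other genes with large rises belong to no list. VIPR1, the receptor of vasoactive intestinal peptide, rose by 1.56 ± 0.25 (adjusted p = 3.2e-05), from 2.91, 6.23 and 3.42 CPM to 11.1, 13.0 and 12.8 CPM. SHISA2, an inhibitor of FGF and WNT receptor maturation, rose by 1.23 ± 0.20, the long noncoding RNA LINC00673 by 1.22 ± 0.17, and ARTN, a ligand of the RET coreceptor GFRA3, by 1.14 ± 0.25. The call of ARTN was lost without TRAP-1-NegB replicate 3 (1.02).

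CDKN1A, the gene of the cell-cycle inhibitor p21, was raised 1.62-fold, from 161, 156 and 166 CPM to 267, 258 and 256 CPM (0.69 ± 0.049, adjusted p = 2.9e-16). It was the only riser of 15 p53 targets of cell-cycle arrest, of which 0 fell. The p53-induced cytokine GDF15 (0.24 ± 0.16, adjusted p = 0.65) and the p53 ubiquitin ligase gene MDM2 (0.14 ± 0.12, adjusted p = 0.77) did not pass, nor did TP53INP1 (0.82 ± 0.34, adjusted p = 0.39) at 0.641 to 3.24 CPM. Of 17 apoptosis targets 0 rose and 1 fell, the nuclease gene AEN (−0.42 ± 0.099), whose call was lost without DMSO replicate 2 or TRAP-1-NegB replicate 2 or 3 (−0.42 to −0.34). Of 13 repair and feedback targets 0 rose and 0 fell. Counts of 0 in lists this small lie near the shares over all tested genes, 0.827% higher and 0.200% lower. The single calls of CDKN1A and AEN lie above them as shares of their lists.

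Markers of BET inhibition were near their control levels. Of 18 BET inhibitor-induced genes 1 rose, TXNIP (0.44 ± 0.058), an inhibitor of thioredoxin, and 0 fell. HEXIM1, the P-TEFb inhibitor that BET inhibitors induce, stood at 61.6, 62.5 and 62.4 CPM with DMSO and 65.9, 75.5 and 64.5 CPM with TRAP-1-NegB, groups that did not overlap but differed by only 0.14 ± 0.083 (adjusted p = 0.60, 95% interval −0.03 to 0.31). SERPINI1 (0.02 ± 0.35, adjusted p = 1) and the hyaluronan synthase gene HAS2 (0.36 ± 0.21, adjusted p = 0.61) did not pass. In a fit of the compared groups alone HAS2 passed (0.36, adjusted p = 0.038). MYC stood at 111, 107 and 104 CPM against 88.2, 92.1 and 88.6 CPM, a difference of −0.26 ± 0.075 that missed the threshold (adjusted p = 0.078) and passed by DESeq2 (−0.27), with only the compared groups fitted (−0.26) and without the pair of libraries that stand apart (−0.26). Of 15 genes of BET proteins and pause release, 33 of MYC and ribosome biogenesis and 36 of G2/M, 0 rose and 0 fell. Over all tested genes 0.827% rose and 0.200% fell, so counts of 0 lie near that share and do not show these lists to be unchanged.

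Stress lists held a few small rises. Of 27 integrated stress response genes 5 rose and 0 fell. Among them were SLC7A5 and its partner SLC3A2 (0.40 ± 0.055), which together form the amino acid transporter, the cystine transporter gene SLC7A11 (0.51 ± 0.11), PPP1R15A (0.49 ± 0.073), which restores translation after stress, and the mTOR inhibitor gene DDIT4 (0.45 ± 0.089). The transfer RNA charging gene AARS stood at −0.04 (adjusted p = 0.91). Of 26 NRF2 targets 3 rose, SLC7A11, GCLC (0.35 ± 0.088) and TXNRD1 (0.27 ± 0.071), and 0 fell. The calls of SLC7A11 and TXNRD1 were each lost in 4 of the 6 fits without a library and that of GCLC in 5, DMSO replicates 2 and 3 and TRAP-1-NegB replicate 3 being among them for all 3 genes. Of 25 unfolded protein and heat shock genes 2 rose, HSPA5 (0.20 ± 0.041) and HSP90AA1. The clock genes NPAS2 (0.44 ± 0.11) and BHLHE40 (0.31 ± 0.066) rose among 16, the former lost without DMSO replicate 2 or 3 or TRAP-1-NegB replicate 1 or 3 (0.36 to 0.45) and the latter without TRAP-1-NegB replicate 1 (0.26). In the hypoxia list of 20 genes NDRG1 rose (0.35 ± 0.067) and EGLN3, an oxygen sensor, fell (−0.57 ± 0.15). E2F7 (0.44 ± 0.086) was the only call of 40 G1/S genes. No call fell on 23 interferon genes, 21 TGF-beta and YAP targets, 10 mesenchymal or 7 haematopoietic and endothelial markers. Beside 0.827% higher and 0.200% lower over all tested genes, lists this small would hold few calls.

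The 30 lowered genes changed little, and the larger falls were at low levels. SNHG19, a noncoding host of small nucleolar RNAs, stood at 6.07, 8.42 and 6.39 CPM with DMSO and at 3.57, 2.90 and 3.19 CPM with TRAP-1-NegB (−1.11 ± 0.22, adjusted p = 0.0017). ABCA1, which exports cholesterol from the cell and is a target of the sterol receptor LXR, went from 15.3 ± 1.61 to 9.22 ± 0.937 CPM (−0.73 ± 0.18, adjusted p = 0.028). Its groups did not overlap, but the call was lost without DMSO replicate 1 or 2 or TRAP-1-NegB replicate 2 or 3 (−0.74 to −0.64). MAPK8IP3, a scaffold of JNK signalling and axonal transport, fell from 55.1, 53.1 and 55.6 CPM to 37.4, 41.2 and 34.9 CPM (−0.53 ± 0.099, adjusted p = 0.00061). The other named falls were FUT4 (−0.59), HDDC3 (−0.56), ZBTB7B (−0.53), HERC2P2 (−0.52), GOLGA8A (−0.48), TPST2 (−0.47), COL27A1 (−0.47) and SNHG7 (−0.46). HERC2P2 and GOLGA8A belong to families of near-identical copies, among which reads may be divided. Of these 8 and EGLN3, only HERC2P2 kept its call without each library in turn. Leaving out any 1 of the 6 libraries ended 5 or 6 of the other 8 calls, at changes from −0.63 to −0.36. SLFNL1, named here after its values were seen, was at 6, 5.59 and 23.0 estimated counts with DMSO and at 0, 0 and 1 with TRAP-1-NegB, too few for a fold, and its call was lost without DMSO replicate 3.

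The 2 h libraries show how the response stood earlier, against their own DMSO controls. At 2 h 761 genes rose and 880 fell, 5.08% and 5.87% of those tested, so that many more genes passed at 2 h than at 4 h. Median GC content was 42.7% in the genes raised at 2 h and 55.2% in those lowered, against 48.6% in all tested genes with a value. Their median transcript lengths were 3370.5 and 2279 bases, against 3551. Without the libraries that stand apart the 2 h split was 1316 up and 1005 down. Of the genes raised at 4 h, 82 were also raised at 2 h, 66.1% of the 4 h list and 10.8% of the 2 h list. Of those lowered, 11 were lowered at both, 36.7% of the 4 h list and 1.25% of the 2 h list. The difference between the times itself passed for 372 genes. It was higher at 4 h in 281 (1.87%) and lower in 91 (0.607%), and without the libraries that stand apart the split was 412 and 303. The DMSO libraries alone differed between the times in 3121 genes, 1704 higher and 1417 lower at 4 h. A difference of the effect can therefore hold a move of the controls. Of the 124 genes raised at 4 h, the difference passed as higher at 4 h for 17 and lower for 2. Of the 30 lowered it passed for 6, all lower at 4 h, whose 2 h changes ran from 0.07 (CCNL2) to 0.49 (SNHG19), and of these COL7A1 and SNHG1 passed as higher at 2 h. Without TRAP-1-NegB replicate 2 at 2 h the 372 became 246. Genes chosen by their 4 h calls tend to show the larger effect at 4 h, since the same libraries enter this difference.

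AhR targets had already moved at 2 h. The same 12 members that rose at 4 h had risen at 2 h, with CYP1A1 at 3.77 and CYP1B1 at 3.31. CYP1A1 stood at 1.67, 1.85 and 1.42 CPM with DMSO and at 23.9, 21.5 and 22.3 CPM with TRAP-1-NegB at 2 h, and its effect at 4 h minus that at 2 h was 1.27 (adjusted p = 0.069). For CYP1B1 the difference was 0.49 (adjusted p = 0.29) and for TIPARP −0.28 (adjusted p = 0.27). It passed for 3 of the 12, ALDH3A1 (0.39), SLC7A5 (0.27) and ALDH1A3 (0.23), all larger at 4 h. Over all 26 tested list members it was higher at 4 h in 3 and lower in 0. PTGS2 stood at 1.40 and SHISA2 at 1.88 at 2 h, with differences between the times of −0.17 (adjusted p = 0.86) and −0.66 (adjusted p = 0.26).

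Most sterol genes passed only at the later time. Of the 13 that rose at 4 h, INSIG1, HMGCS1, IDI1 and MSMO1 had risen at 2 h, and the difference between the times passed for 9, all larger at 4 h. These 13 were chosen by their 4 h calls, whose libraries enter the difference, which favours larger effects at 4 h. Over all 29 tested members, without that choice, the difference was higher at 4 h in 10 and lower in 0. SQLE stood at 53.9, 49.4 and 56.8 CPM with DMSO and at 61.1, 57.9 and 53.2 CPM with TRAP-1-NegB at 2 h, overlapping groups. No rise of SQLE was detected at 2 h (0.10, adjusted p = 0.68, 95% interval −0.11 to 0.32), and the difference between the times passed (0.56 ± 0.15, adjusted p = 0.025). INSIG1 had risen at 2 h by 0.75 and by 0.97 more at 4 h (adjusted p = 1.4e-08), and HMGCS1 by 0.37 and 0.69 more (adjusted p = 4.7e-05). Over all 29 list members the median was 0.04 at 2 h and 0.33 at 4 h, while over all genes it was −0.0089 and −0.0033.

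**Figure D3:**
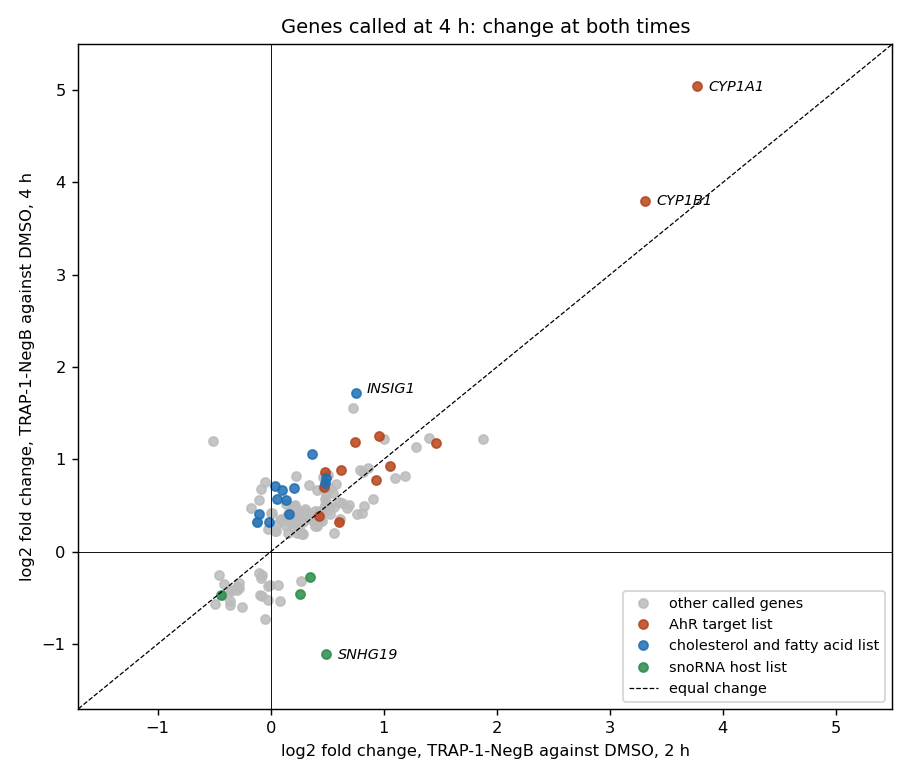
Log2 fold change against DMSO at 2 h (x axis) and 4 h (y axis) for 153 genes called at 4 h with a mean of at least 1 CPM, with a dashed line of equal change. The 12 AhR targets lie on both sides of the line, at −0.28 (TIPARP) to 1.27 (CYP1A1) from it on the 4 h axis, and all 13 cholesterol and fatty acid genes lie above it, among them INSIG1 (0.75 and 1.72). The genes were chosen by their 4 h calls, which favours places above the line for raised genes.

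Other compounds at 4 h were compared with the same DMSO libraries, so their changes share controls and are set side by side. CYP1B1 stood at 3.87 with MS78, −1.52 with TRAP1, −1.39 with TRAP-1-NegP and −1.83 with JQ1. Its levels were 152, 154 and 152 CPM with MS78 and 5.00, 3.50 and 2.23 CPM with TRAP1, below all DMSO libraries. CYP1A1 stood at 4.79 with MS78, 0.88 with TRAP1, 1.18 with TRAP-1-NegP and 0.17 with JQ1. TIPARP differed from this pattern, at 1.21, 1.19, 1.03 and 1.60 in the same order. ALDH1A3 stood at 0.74, 0.87, 0.72 and 0.77, again in that order. INSIG1 stood at 2.54 with MS78, 3.40 with TRAP1, 3.91 with TRAP-1-NegP and 2.27 with JQ1, each above its 1.72 with TRAP-1-NegB. CDKN1A stood at 0.01 with MS78, 5.59 with TRAP1, 2.08 with TRAP-1-NegP and 2.13 with JQ1.

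**Figure D4:**
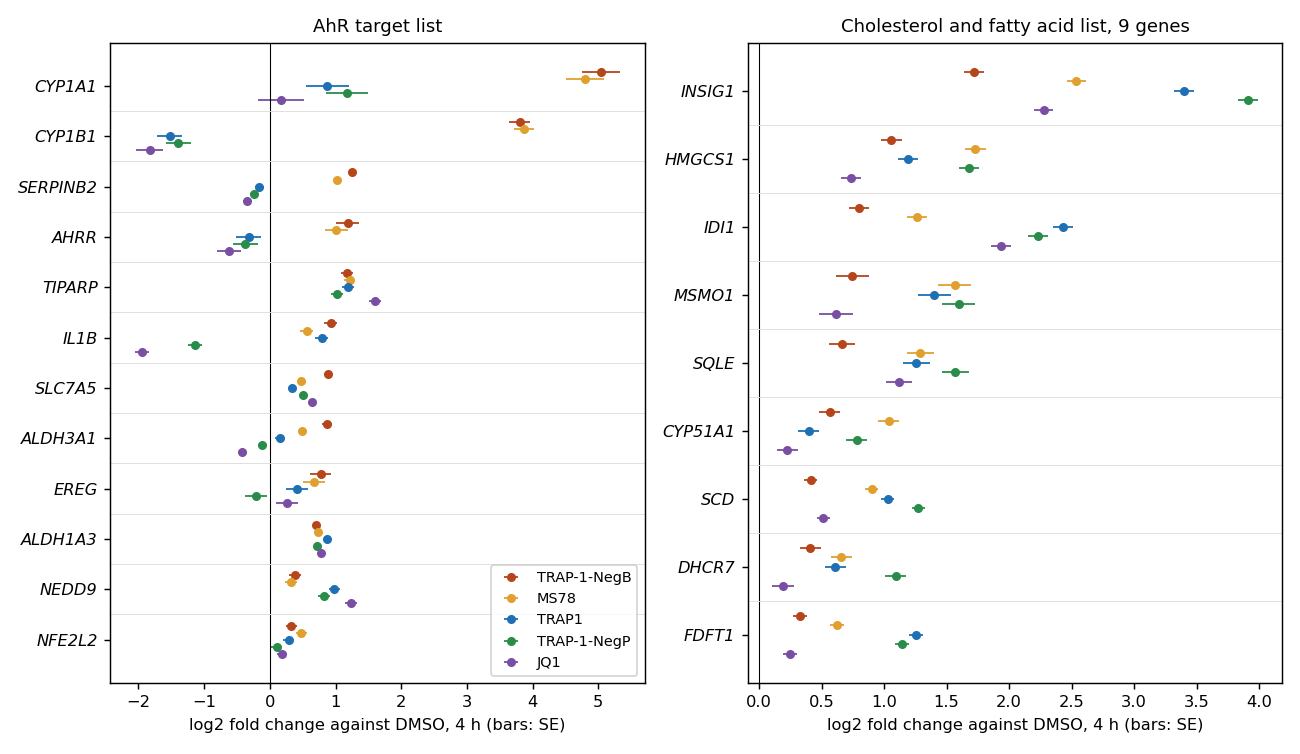
Log2 fold change against the shared DMSO libraries at 4 h, with SE bars, for the 12 called AhR targets (left) and 9 of the 13 called cholesterol and fatty acid genes (right) under 5 compounds. CYP1B1 stands at 3.80 with TRAP-1-NegB and 3.87 with MS78 and below 0 with TRAP1, TRAP-1-NegP and JQ1.

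MS78 and TRAP-1-NegB were then tested directly against each other at 4 h. MS78 was higher in 301 genes and lower in 1037, 2.01% and 6.92% of those tested. Of 26 AhR targets 0 were higher and 4 lower with MS78. CYP1B1 differed by 0.06 ± 0.13 (adjusted p = 0.85, 95% interval −0.21 to 0.34), CYP1A1 by −0.25 ± 0.22 (adjusted p = 0.58, interval −0.69 to 0.19) and TIPARP by 0.04 ± 0.083 (adjusted p = 0.86, interval −0.13 to 0.20). The 4 that were lower with MS78 were SLC7A5 (−0.41 ± 0.054, adjusted p = 2.9e-07), ALDH3A1 (−0.37 ± 0.069, adjusted p = 0.00017), IL1B (−0.36 ± 0.097, adjusted p = 0.011) and SERPINB2 (−0.23 ± 0.063, adjusted p = 0.012). CDKN1A was lower with MS78 by 0.68 on the log2 scale (−0.68 ± 0.049, adjusted p = 3.5e-15), and FOSL1 by 0.43 (−0.43 ± 0.062, adjusted p = 1.5e-06). Cholesterol and fatty acid genes were higher with MS78 in 13 of 29 cases, and 1, the phosphomevalonate kinase gene PMVK, was lower (−0.53). INSIG1 was at 149, 145 and 141 CPM with MS78, above all TRAP-1-NegB libraries, a difference of 0.82 ± 0.071 (adjusted p = 4.3e-12), and HMGCS1 was higher by 0.67 ± 0.078 (adjusted p = 2.9e-08). Most genes named here had been chosen for their change with TRAP-1-NegB, whose libraries enter this contrast. The count of 1338 fell to 725 and 886 without MS78 replicate 1 or 2 and to 840 and 837 without TRAP-1-NegB replicate 2 or 3, and was 2124 (856 higher, 1268 lower) without the libraries that stand apart, 1741 (615 and 1126) by DESeq2 and 715 after GC correction. Median change with MS78 ran from 0.23 in the fifth of genes lowest in GC to −0.25 in the highest, against 0.10 and −0.06 with TRAP-1-NegB.

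TRAP1 against TRAP-1-NegB at 4 h gave 3295 genes higher and 3620 lower, 22.0% and 24.2% of those tested. CDKN1A was 4.90 ± 0.056 higher with TRAP1 (adjusted p = 1.2e-54), GDF15 3.94 ± 0.16 (adjusted p = 1.9e-23), MDM2 0.81 ± 0.12 (adjusted p = 4.8e-08) and HEXIM1 1.87 ± 0.083 (adjusted p = 4.4e-26). HAS2 was lower with TRAP1 (−5.53 ± 0.30, adjusted p = 6.7e-15). Of 26 tested AhR targets 4 were higher with TRAP1, NQO1 (0.62), NEDD9 (0.60), CYP2S1 (0.54) and ALDH1A3 (0.17), and 8 were lower. These shares lie not far from the 22.0% and 24.2% over all tested genes. CYP1B1 (−5.33 ± 0.18, adjusted p = 2.2e-24), CYP1A1 (−4.17 ± 0.27, adjusted p = 3e-19), AHRR (−1.51 ± 0.18, adjusted p = 5.7e-10) and SERPINB2 (−1.41 ± 0.065, adjusted p = 1.8e-25) lay lower. TIPARP differed by 0.01 ± 0.083 (adjusted p = 0.91, 95% interval −0.15 to 0.18), and the receptor transcript AHR was higher with TRAP1 by 0.71 ± 0.14 (adjusted p = 9.6e-05). Of 29 cholesterol and fatty acid genes 15 were higher with TRAP1 and 2 were lower, INSIG2 (−1.24) and the elongase gene ELOVL6 (−0.56). INSIG1 was higher by 1.68 ± 0.072 (adjusted p = 1.1e-26), IDI1 by 1.63 ± 0.077 (adjusted p = 6.8e-25) and SQLE by 0.59 ± 0.10 (adjusted p = 4.3e-06), while HMGCS1 differed by 0.13 ± 0.078 (adjusted p = 0.16, interval −0.02 to 0.29).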

How the data were processed

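Polyadenylated RNA of BxPC-3 cells was sequenced as paired reads of 150 bases, per the series' design text. The authors quantified genes with Salmon 1.10.3 within nf-core/rnaseq 3.18.0, and per the submitters' processing notes the build was hg38. The release of the annotation was not given in the sources used here. Estimated counts per gene were taken as deposited, not scaled for depth, and the authors' TPM gave the levels per length. Length-scaled estimated counts, rescaled by the authors for transcript length, served as an alternative.

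Estimated counts were rounded and tested in R 4.3.3 with edgeR 4.0.16: filterByExpr with a minimum count of 10, TMM scaling, and a quasi-likelihood fit of all 36 libraries with 1 mean for each of 12 groups. Tests were two-sided, Benjamini-Hochberg adjusted over the 14988 genes tested. SEs and 95% intervals came from the fit, and CPM used TMM-adjusted totals. The members, gene lists and tests were chosen with earlier results of these data known. Named genes were the 12 largest called rises and falls with a mean of at least 1 CPM, the 4 called genes of lowest adjusted p in each list and direction, and a short panel of AhR, p53, BET and sterol genes. Other list members were picked after their values were seen. Of the 25 lists, that of acinar and endocrine markers had no tested gene. GC content came from GENCODE v29 transcripts, and promoter windows from RefSeq. The tests were also run on simulated data, where the 4 h comparison recovered 55 of 100 genes changed 1.5-fold and 93 of 100 changed 3-fold. There, 10 genes outside the changed ones were also called. DESeq2 1.42.0 served as an alternative, and figures used matplotlib 3.10.9. Some genes that the rule names are not reported here. The scaled gene table and the transcript tables were not used here.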

Additional observations from a re-analysis of the deposited data

Results flagged for a closer look

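The effect of TRAP-1-NegB differed between 4 and 2 h for 372 genes, by the test of the difference in 1 edgeR fit (adjusted p under 0.05). The difference is given as the log2 effect at 4 h minus that at 2 h. Among genes called at 4 h it was positive for the listed cholesterol genes INSIG1 (0.97), HMGCS1 (0.69), SQLE (0.56), FDFT1 (0.45) and CYP51A1 (0.43). It was positive too for the fatty acid desaturase gene SCD (0.52) of the same list. The lysosomal sterol transporter gene NPC1 (0.45) is not on that list. Its 4 h call was lost in 5 of the 6 fits without a library.

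The difference was also positive for CEP350 (0.66), CREB3L2 (0.64) and WASF2 (0.27), and for the AhR targets ALDH3A1 (0.39), SLC7A5 (0.27) and ALDH1A3 (0.23). For CEP350 the DMSO libraries held 615, 636 and 672 estimated counts at 2 h and 369, 318 and 416 at 4 h. The TRAP-1-NegB libraries held 460, 691 and 577 at 2 h and 539, 519 and 731 at 4 h, all unscaled for depth. DMSO counts were also lower at 4 h for CREB3L2 (723, 667 and 732, then 510, 375 and 418). The same held for CYP51A1 (1495, 1634 and 1337, then 1112, 887 and 1006). Such a move of the controls enters the difference. ANXA1 (−0.36) and the thrombomodulin gene THBD (−0.39) rose at both times and less at 4 h. For the lowered genes the difference was negative in CCNL2 (−0.43), COL7A1 (−0.59), MAPK8IP3 (−0.61), SNHG1 (−0.62), SNHG3 (−0.72) and SNHG19 (−1.60). COL7A1 and SNHG1 had risen at 2 h, by 0.27 and 0.35, and fell at 4 h, by 0.32 and 0.27. Both 4 h calls were lost in 4 of the 6 fits without a library, COL7A1 without DMSO replicate 2 or 3 or TRAP-1-NegB replicate 1 or 3 (−0.32 to −0.27) and SNHG1 without DMSO replicate 2 or 3 or TRAP-1-NegB replicate 2 or 3 (−0.27 to −0.23). All these genes were chosen by their 4 h calls, whose libraries enter the difference. Groups of 3 libraries are too small for a test of outlying samples.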

How the results depend on the processing

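The 154 calls at 4 h became 234 (168 up, 66 down) by the DESeq2 Wald test, 248 without a count filter, 310 (254 up, 56 down) after GC correction and 378 (294 up, 84 down) without the pair of libraries that stand apart, these last 2 settings being added after the data were seen. With a library left out they ranged from 92 to 158. The 2 h calls were 2321 (1316 up, 1005 down) without both libraries and became 2695 with only the compared groups fitted and 1114 to 1535 with a library left out. The 372 differences between the times were 552 (358 up, 194 down) by DESeq2 and 482 (313 up, 169 down) without a count filter, and became 646 (389 up, 257 down) with only the compared groups fitted, 701 (428 up, 273 down) after GC correction, 715 (412 up, 303 down) without both libraries and 246 to 331 with a library left out. MS78 against TRAP-1-NegB gave 2228 (738 higher, 1490 lower), 715 (199 and 516), 2124 (856 and 1268) and 725 to 959 in the same order, and 1741 (615 and 1126) by DESeq2. TRAP1 against TRAP-1-NegB stayed between 6266 and 6502 with a library left out. Apart from fewer libraries, the cause of these moves was not tested. AhR calls were 12 in the 9 settings that kept all 6 libraries, and cholesterol calls 13 to 15. Of the named genes SERPINI1, not called at 0.02, changed sign in 5 settings (−0.37 to −0.05), and the others kept their direction in every setting run. HDDC3 and ZBTB7B, both lowered, also lost their calls with length-scaled counts and without a count filter, and LIF and KLF5 with length-scaled counts. Of 61 named genes, 43 to 49 kept their side of the threshold with a library left out.

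The replicate block gave 153 calls at 4 h. Same-numbered deviations of the compared libraries correlated at 0.009, 0.008 and −0.046, which gave no sign of pairing by replicate number. With 3 libraries per group these values cannot exclude it, and the block is not read further. Depth limits the lowest genes, such as SERPINI1 at 0.543 to 2.08 CPM, whose change carries an SE of 0.35.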

Other observations

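The gene lists of this section were drawn up after the values had been seen, so their counts only describe. Over all tested genes 0.827% rose and 0.200% fell at 4 h, and 5.08% and 5.87% at 2 h. Of 16 tested noncoding host genes of small nucleolar RNAs, 0 rose and 4 fell at 4 h, SNHG19 (−1.11), SNHG7 (−0.46), SNHG3 (−0.46) and SNHG1 (−0.27), with a list median of −0.25. At 2 h 3 of the 16 rose and 1 fell, with a median of 0.13, and SNHG1, which had risen by 0.35 at 2 h, was lowered at 4 h. GAS5, another host, stood at −0.11 ± 0.12 (adjusted p = 0.83). The falls of SNHG7, SNHG3 and SNHG1 each lost their calls in 3 or 4 of the 6 fits without a library, DMSO replicate 3 being common to all.

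Of 12 interleukin-1 family genes 3 rose at 4 h, the cytokine genes IL1B and IL1A and the receptor antagonist gene IL1RN (0.36), and 0 fell. Of 6 EGF receptor ligands AREG and EREG rose and 0 fell. IL1B, IL1A, AREG and EREG were also counted in lists above. Among 10 sterol transport genes NPC1 was the single rise (0.32), and among 8 LXR targets ABCA1 was the single fall, while STARD4 stood at 0.57 (adjusted p = 0.066). The calls of IL1RN and NPC1 were lost in 4 and 5 of the 6 fits without a library.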
